A study of Pseudotsuga menziesii with 10 samples.

Results

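The last 6 days of a time course of Douglas-fir (Pseudotsuga menziesii) seed development, from 30 June to 6 July 2011, are described here at the level of single transcripts. The 4 libraries of these 2 dates were chosen by their labels, out of 10 in the series. On 6 July there was 1 library of pollinated and 1 of unpollinated megagametophytes, and on 30 June there was 1 of each as well. Polyadenylated RNA of each library came from a pool of 200 to 400 megagametophytes, dissected from field-grown ramets of a single clone, genotype 970. All cones had been emasculated and bagged. Pollinated cones then received a mix of pollen from several genotypes and unpollinated cones received none. The labels describe the pollinated pools as megagametophyte together with embryo and the unpollinated pools as megagametophyte alone. The remaining libraries, megagametophytes of 10 and 22 June in both states and cone scales and cone bracts of 26 May, from the same clone, serve as context only.

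The megagametophyte is the haploid female gametophyte of a conifer ovule. It forms before fertilization, surrounds the embryo, and is known for storing the protein and lipid that feed the embryo and later the seedling. Part of it breaks down to leave the corrosion cavity, into which the embryo grows. By the labels, 30 June and 6 July fall in the period when embryos develop in pollinated ovules and when ovules without pollen begin to abort. The comparison of the dates therefore asks what is shared by ovules with and without an embryo, and where embryo growth and early abortion differ.

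The table holds 54889 assembled transcripts, called contigs, with no gene names. Contigs are therefore named by identifier, few are named, and no pathway, storage protein family or embryo marker could be examined. For the same reason the labelled tissue could not be checked against its markers. Levels are in FPKM, which counts sequenced fragments per contig length and per total of the library, after undoing the deposited logarithm, which was read as log2(FPKM + 1). In the 4 libraries 8682 to 8738 contigs stood at 10 FPKM or more. Contigs at 1 FPKM or more numbered 24632 in the pollinated and 25242 in the unpollinated library of 6 July, and 26120 in the pollinated and 23178 in the unpollinated library of 30 June. The number of reads behind each library is unknown, so no counting error is given. In pooled tissue, fewer cells of a kind and less RNA per cell cannot be told apart.

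Between 30 June and 6 July a small group of contigs differed widely in level in both states, and more of them were higher than lower on the later date. A set of 179 contigs was 4-fold or more higher on 6 July in both pollinated and unpollinated megagametophytes, on the log2(FPKM + 1) scale and with at least 10 FPKM on the higher date in each state. A set of 36 contigs was 4-fold or more lower by the same rule. These sets are 2.0% and 0.403% of the 8936 contigs that reached 10 FPKM in both states. Contigs of the higher set had a median of 38.7 FPKM in the pollinated and 29.1 FPKM in the unpollinated library of 6 July, against 4.35 and 1.68 FPKM on 30 June. Contigs of the lower set had a median of 3.68 FPKM in the pollinated and 2.23 FPKM in the unpollinated library of 6 July, against 28.6 and 53.0 FPKM on 30 June. Both sets were chosen on these 4 libraries, so their medians describe them and test nothing.

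**Figure D1:**
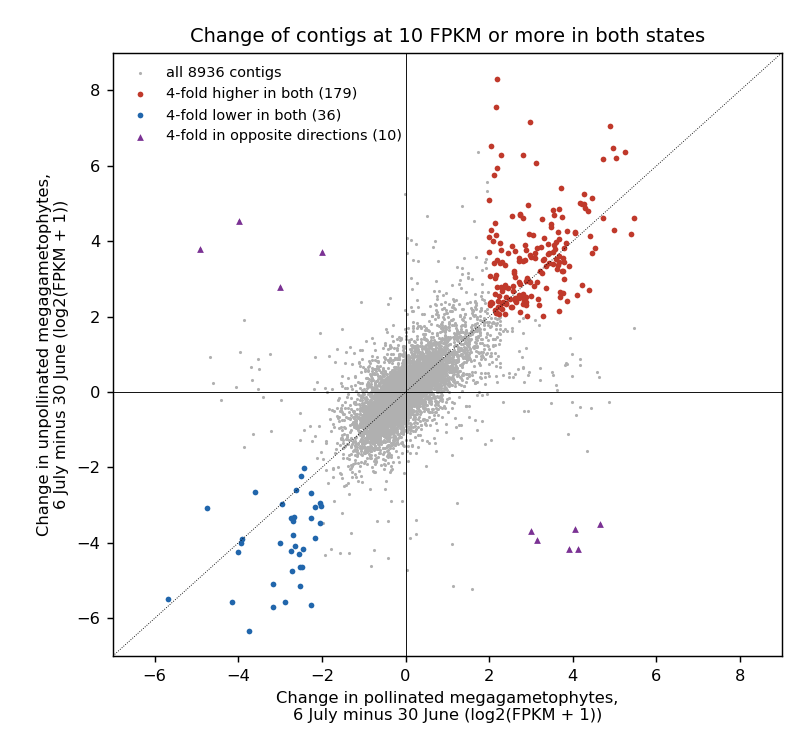
Change from 30 June to 6 July on the log2(FPKM + 1) scale in pollinated (horizontal axis) and unpollinated megagametophytes (vertical axis). Each point is 1 of the 8936 contigs that reached 10 FPKM in both states, the 179 that were 4-fold or more higher and the 36 that were lower in both states are coloured, and triangles mark the 10 contigs that moved 4-fold or more in opposite directions.

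No contig passed a test of the change common to both states. The test was limma's moderated comparison of 6 July with 30 June, with pollination state as the pair, at a Benjamini-Hochberg adjusted p under 0.05. It called 0 of 25621 contigs higher and 0 lower, a share of 0%, with a smallest limma adjusted p of 0.0966. Before adjustment, 6137 contigs had a p under 0.05, which is 24.0% of those tested, and of these 3128 were higher and 3009 lower on 6 July. With 2 libraries a date and state as the pair, 1 residual degree of freedom was left per contig. The count of 0 therefore does not tell how many contigs changed. The same test called none of the changes put into simulated data, large ones included. Only a small share of the simulated contigs was changed, so that result does not give the power of the test in the measured data. When the spread was estimated over all 8 megagametophyte libraries, which adds the 2 earlier dates as levels of the date factor, limma called 472 contigs (346 higher, 126 lower). Those were 1.28% and 0.466% of 27065 contigs.

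By the values alone, both libraries of 6 July lay above both of 30 June for 6055 contigs, 23.6% of those tested, and below for 7132, or 27.8%. Most of the contigs tested changed little. The median change over all contigs tested was -0.09 log2 units in pollinated and 0.01 in unpollinated megagametophytes, and the middle 50% lay between -0.47 and 0.34 and between -0.42 and 0.48. Changes of 2-fold or more upward were seen in 9.71% of contigs in pollinated and 12.02% in unpollinated megagametophytes. Downward changes of that size were seen in 7.32% and 8.33%. The excess of higher over lower contigs grew with the size asked for. By the rule for both states, 522 contigs were 2-fold or more higher and 190 lower, and at 8-fold there were 67 and 10.

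The contigs with the smallest p and at least 10 FPKM on the higher date follow, although none of them passed the test. GAZW02038535 stood at 226.5 FPKM in the pollinated and 112.0 FPKM in the unpollinated library of 6 July, against 17.0 and 8.19 FPKM on 30 June. Both libraries of 6 July lay above both of 30 June, and the earlier dates were lower still, at 3.82 to 4.35 FPKM. This contig was also abundant in cone scales (52.4 FPKM) and bracts (135.2 FPKM). GAZW02083391 stood at 234.6 and 132.4 FPKM on 6 July, against 18.8 and 8.65 FPKM on 30 June. It followed a like course from 0.434 to 1.23 FPKM on 10 and 22 June, and was present in scales (16.5 FPKM) and bracts (11.2 FPKM). The fitted changes were 3.64 ± 0.11 (SE) and 3.68 ± 0.13 log2 units, both with a limma adjusted p of 0.0966. In the fit over 8 libraries the limma adjusted p was 0.0306 for GAZW02038535 and 0.0354 for GAZW02083391.

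On the other side, GAZW02070853 stood at 0.0353 FPKM in the pollinated and 0.0425 FPKM in the unpollinated library of 6 July, against 52.1 and 46.2 FPKM on 30 June. It had been present at 16.3 to 47.5 FPKM on 10 and 22 June, so its near absence was seen on 6 July and on no earlier date in either state. In scales it stood at 0.0425 FPKM and in bracts at 0.338 FPKM. GAZW02078954 stood at 3.82 and 2.20 FPKM on 6 July, against 36.5 and 24.1 FPKM on 30 June and 22.6 to 40.1 FPKM on the earlier dates. The fitted changes were -5.59 ± 0.19 (SE) and -2.97 ± 0.15 log2 units, both with a limma adjusted p of 0.0966 and both with 0.0306 in the fit over 8 libraries. The change of GAZW02070853 varied with the pseudocount: it was -8.47 log2 units with 0.1 FPKM added and -3.42 with 5 FPKM added.

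The higher and the lower set differed in their levels on the earlier dates and in cone tissue. Of the 179 contigs of the higher set, 59 were under 1 FPKM in all 4 libraries of 10 and 22 June. That is 33.0% of the set, against 1.33% of the 8936 contigs. In 41 of the 179 at least 1 library of those dates reached 10 FPKM (22.9%, against 87.0% of the 8936), and in 9 an earlier library stood above both of 6 July (5.03%, against 44.0%). The set was picked to be high on 6 July and at least 4-fold lower on 30 June. All 8936 contigs had medians of 23.1 FPKM in the pollinated and 22.9 FPKM in the unpollinated library of 30 June. These shares therefore follow in part from the choice of contigs low on 30 June, and the part was not tested. The median of the set was 1.11 and 1.0 FPKM on 10 June and 1.16 and 1.27 FPKM on 22 June, in pollinated and unpollinated megagametophytes in that order. In cone tissue 93 of the 179 stood at 10 FPKM or more in scales (52.0%, against 70.5% of the 8936) and 84 in bracts (46.9%, against 66.0%). Both libraries of 6 July lay above scales and bracts for 123 of the 179 (68.7%, against 52.1%), which also follows in part from the choice. Under 1 FPKM in every library outside the 2 dates compared stood 11 of the 179 (6.15%, against 0.403% of the 8936), a share with the same limit.

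Most of the 36 contigs of the lower set had been present on an earlier date. In 32 of them at least 1 library of 10 or 22 June reached 10 FPKM, or 88.9%, close to the 87.0% of all 8936 contigs. Both libraries of 10 June reached 10 FPKM for 21 of the 36 (58.3%, against 64.9%), and both were under 1 FPKM for 4. In 34 of the 36 an earlier library stood above both of 6 July (94.4%, against 44.0%), a share that follows in part from the choice of contigs low on that date. On 10 June their median was 28.9 FPKM with pollen and 17.8 FPKM without, and on 22 June it was 26.0 and 40.8 FPKM. In cone tissue the set was low, its median being 0.429 FPKM in scales and 0.866 in bracts. There, 16 of the 36 were under 1 FPKM in both tissues, which is 44.4%, against 4.44% of the 8936 contigs and 10.6% of the higher set. At 10 FPKM or more stood 4 of the 36 in scales and 6 in bracts. None of these shares was tested, since tissue and date rest on single libraries.

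**Figure D2:**
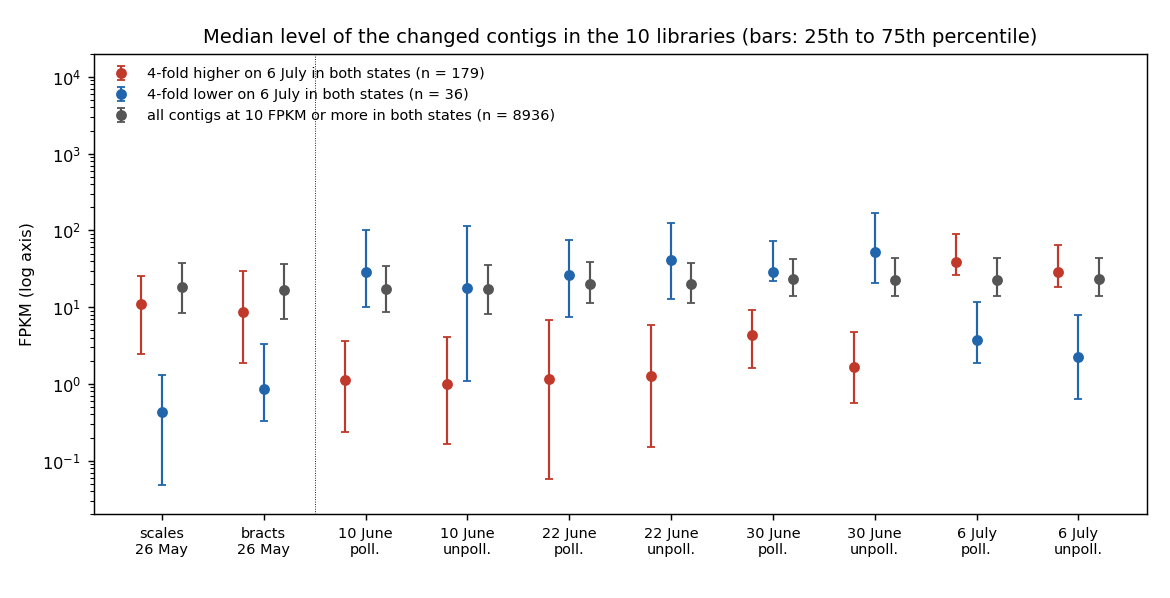
Median FPKM (log axis) of the 179 contigs 4-fold or more higher on 6 July, the 36 lower, and all 8936 contigs at 10 FPKM or more in both states, in the 10 libraries, with bars from the 25th to the 75th percentile over contigs. The higher set stays near 1 FPKM through 10 and 22 June and ends at 38.7 and 29.1 FPKM, and the lower set is low in scales and bracts, at 0.429 and 0.866 FPKM.

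The 2 sets took up a small part of the transcript pool. The higher set held 3.73% of all FPKM in the pollinated and 2.55% in the unpollinated library of 6 July, against 0.548% and 0.152% on 30 June. The lower set held 0.141% and 0.102% on 6 July, against 0.863% and 1.55% on 30 June. Over all contigs, gains between the dates came to 19.5% of the FPKM sum of 30 June in pollinated and 22.0% in unpollinated megagametophytes, and losses to 18.5% and 19.7%. The 100 largest gains made up 25.7% and 25.8% of all gain, so most of the turnover was spread over many smaller changes. Of the 100 most abundant contigs of each library, 64 were shared between 6 July and 30 June in pollinated and 62 in unpollinated megagametophytes. Between the states, 77 of them were shared on 6 July and 83 on 30 June.

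The contigs that gained most in FPKM were more abundant on 30 June in pollinated than in unpollinated megagametophytes, and on 6 July the states lay within 2-fold of each other in them. The 10 contigs with the largest gain common to both states stood at 441.6 to 1120 FPKM in the pollinated and 403.5 to 954.4 FPKM in the unpollinated library of 6 July. On 30 June they stood at 57.5 to 616.4 FPKM in the pollinated and at 5.15 to 239.5 FPKM in the unpollinated library. Pollinated was higher for 10 of the 10 on 30 June, 2-fold or more for 8 of them, and higher for 7 of the 10 on 6 July. Their median change was 1.89 log2 units in pollinated and 4.82 in unpollinated megagametophytes. The contig at the top stood at 1120 and 723.1 FPKM on 6 July, against 244.6 FPKM in the pollinated and 10.7 FPKM in the unpollinated library of 30 June. On 10 and 22 June it was at 2.16 to 9.13 FPKM. Together these 10 contigs held 1.73% and 1.45% of all FPKM on 6 July, against 0.570% and 0.167% on 30 June.

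The same order of the states was found on 30 June across the higher set. Pollinated was above unpollinated for 148 of the 179 contigs on 30 June (82.7%, against 48.8% of the 8936) and for 150 on 6 July (83.8%, against 46.0%). A gap of 2-fold or more in favour of pollinated was seen for 76 of the 179 on 30 June (42.5%, against 3.79% of the 8936). On 6 July it was seen for 33 (18.4%, against 2.73%). In favour of unpollinated it was seen for 4 on each date (2.23%, against 2.78% on 30 June and 2.12% on 6 July). The set was chosen on these libraries to be low on 30 June, with medians of 4.35 and 1.68 FPKM. All 8936 contigs had medians of 23.1 and 22.9 FPKM on that date, so these shares are not matched for level. The median change of the set was 2.89 log2 units in pollinated and 3.46 in unpollinated megagametophytes. In the lower set, pollinated stood above unpollinated for 27 of 36 contigs on 6 July and 8 of 36 on 30 June. Its median change was -2.68 log2 units in pollinated and -3.95 in unpollinated megagametophytes. By these medians the pollinated library of 30 June lay nearer to 6 July in both sets. The order of the summed levels turned with the choice of contigs. The FPKM share of the higher set was 6.81 times as large on 6 July as on 30 June in pollinated and 16.8 times in unpollinated megagametophytes, but over the 346 contigs called higher in the fit of 8 libraries it was 4.10 and 3.79 times. The pollinated library of 30 June also held more contigs at 1 FPKM or more than the unpollinated library of that date, and the part of this in the result was not tested.

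The largest losses belonged to transcripts that had been among the most abundant through June, with the exception of 1 that stood at 14.6 FPKM in the unpollinated library of 10 June. The 10 contigs with the largest loss common to both states stood at 27.4 to 1478 FPKM in the pollinated and 11.5 to 1551 FPKM in the unpollinated library of 6 July, against 381.7 to 2451 and 595.3 to 1964 FPKM on 30 June. They were of 2 kinds. In 3 of the 10 the loss was 4-fold or more in both states, as for a contig at 27.4 and 11.5 FPKM on 6 July, against 381.7 and 1016 FPKM on 30 June, with 785.9 to 1225 FPKM on the earlier dates. The 7 others were less than 2-fold lower in both states and still stood at high levels on 6 July. The 3 stood at 0.682 to 16.5 FPKM in scales and bracts.

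**Figure D3:**
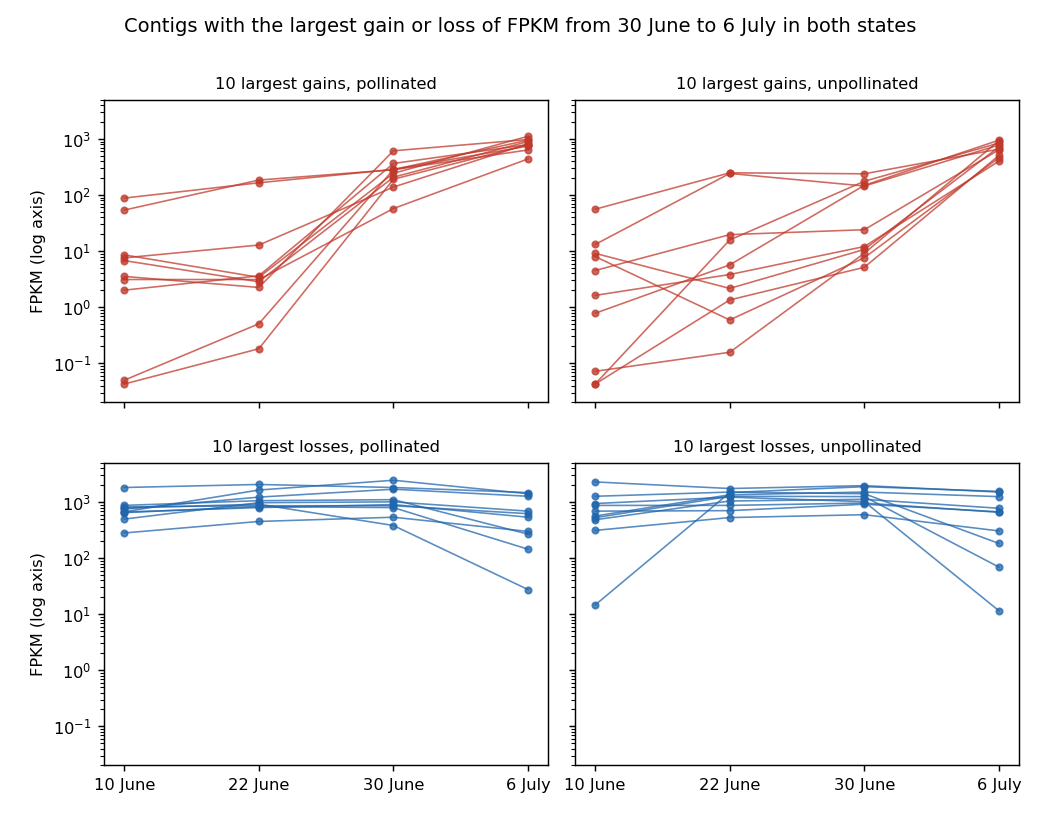
FPKM (log axis) on the 4 dates of the 10 contigs with the largest common gain (top) and the 10 with the largest common loss (bottom) between 30 June and 6 July, in pollinated (left) and unpollinated megagametophytes (right). On 30 June the gaining contigs stand at 57.5 to 616.4 FPKM with pollen and at 5.15 to 239.5 FPKM without.

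Going between near absence and presence was rare. Of the 54889 contigs, only 15 reached 10 FPKM in each library of 6 July from under 1 FPKM in each of 30 June, and 4 showed the reverse. The 15 stood at 10.5 to 85.2 FPKM on 6 July. Pollinated was the higher library for 10 of them, against 46.0% of the 8936 contigs at 10 FPKM in both states. Of the 15, 7 were under 1 FPKM in all 4 libraries of 10 and 22 June (46.7%, against 1.33% of the 8936). The choice of contigs low on 30 June bears on this share. For these 7, 6 July was the first megagametophyte date at 1 FPKM or more. In another 5 at least 1 earlier library had reached 5 FPKM or more, but not in every case in both states. GAZW02049535 stood at 6.94 to 8.45 FPKM in both states on 10 and 22 June. By contrast, GAZW02034752 stood at 20.4 FPKM in the pollinated library of 22 June. In the unpollinated libraries of 10 and 22 June it stood at 0.0425 FPKM. At 10 FPKM or more in scales or bracts stood 7 of the 15. By tissue these were 6 in scales (40.0%, against 70.5% of the 8936) and 5 in bracts (33.3%, against 66.0%). The 4 contigs that were lost stood at 14.7 to 52.1 FPKM on 30 June, and none of them reached 10 FPKM in scales or bracts.

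Agreement between the states was closer for abundant than for scarce contigs. The changes of pollinated and of unpollinated megagametophytes, which share no library, correlated across the 25621 contigs at a Pearson r of 0.50. Across the 9002 contigs with a mean of 1 to 3 FPKM r was 0.35, and 63.4% changed in the same direction. Across the 2709 contigs at 30 to 100 FPKM r was 0.79 and 80.0% changed in the same direction, and across the 137 at 300 FPKM or more these values were 0.87 and 79.6%. The median gap between the states' changes was 0.51 log2 units at 1 to 3 FPKM and 0.20 at 30 to 100 FPKM, beside a median change of 0.435 and 0.32. Contigs are not independent of each other and the lane of each library is not given in the sources used here, so these are descriptions without a p.

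**Figure D4:**
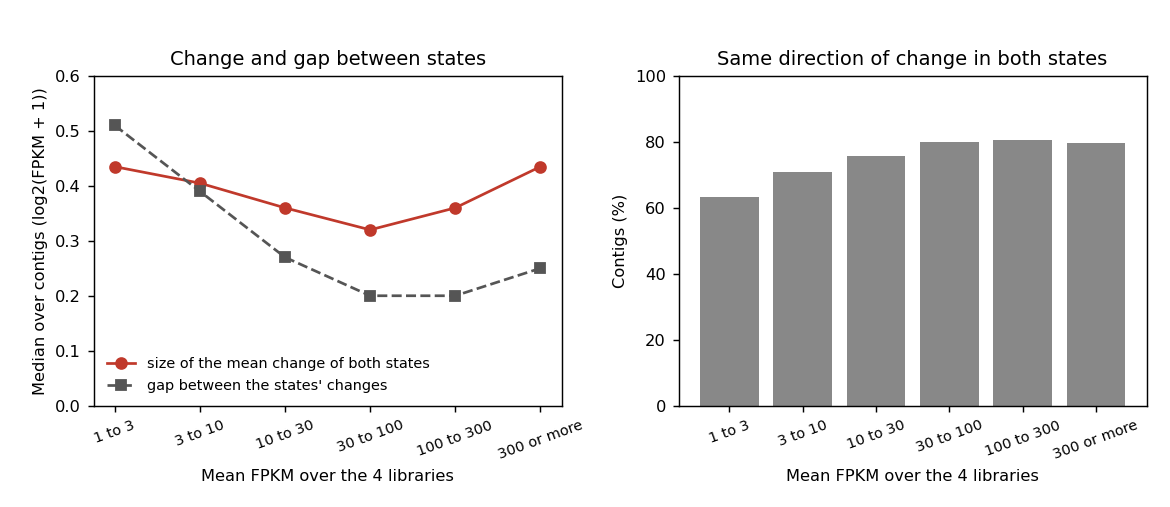
Contigs grouped by mean FPKM over the 4 libraries. The left panel gives the median size of the mean change of both states and the median gap between the states' changes (log2(FPKM + 1)), and the right panel the percent of contigs that changed in the same direction in both states, from 63.4% at 1 to 3 FPKM to 80.0% at 30 to 100 FPKM.

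Some contigs changed in 1 state while the other state stayed level. In pollinated megagametophytes alone, 52 contigs were 4-fold or more higher and 29 lower on 6 July while the unpollinated pair stayed within 1.5-fold, which are 0.525% and 0.293% of the 9900 contigs at 10 FPKM in that state. In unpollinated megagametophytes alone, 45 were higher and 47 lower, or 0.450% and 0.470% of 9999. Taking each state by itself, 397 contigs (4.01%) were 4-fold or more higher and 115 (1.16%) lower in pollinated megagametophytes, and 378 (3.78%) and 199 (1.99%) in unpollinated ones. A change of 4-fold or more upward in pollinated and downward in unpollinated megagametophytes was seen for 6 of the 8936 contigs (0.0671%), and the reverse for 4 (0.0448%). The difference between the states could not be tested, since each state has 1 library on each date.

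Many of these contigs differed between the states on 30 June and no longer did on 6 July. Of the 47 contigs lower in unpollinated megagametophytes alone, 27 were 2-fold or more apart between the states on 30 June and within 2-fold on 6 July, and 12 took the opposite course. For the 45 that were higher in unpollinated megagametophytes alone these counts were 21 and 13. Among those that changed in pollinated megagametophytes alone they were 22 and 18 for the 52 higher contigs and 14 and 12 for the 29 lower ones. Of the 459 contigs that were 2-fold or more higher in pollinated megagametophytes on 30 June, 135 still were on 6 July, 300 lay within 2-fold and 24 had turned. Of the 478 higher in unpollinated megagametophytes on 30 June, 110 still were, 335 lay within 2-fold and 33 had turned. The 459 and the 478 contigs were picked for their gap on 30 June, so the counts describe them and have no test. Contigs apart on 6 July were not followed back to 30 June.

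The widest gaps between the 2 changes belonged to contigs that swapped presence and near absence. GAZW02091633 stood at 17.0 FPKM in the pollinated and 0.0281 FPKM in the unpollinated library of 6 July, against 0.0281 and 17.4 FPKM on 30 June. GAZW02035834 stood at 25.5 and 0.0497 FPKM on 6 July, against 0.0644 and 10.96 FPKM on 30 June. In both contigs all 4 libraries of 10 and 22 June held intermediate or like levels, at 0.879 to 18.0 FPKM. In the other direction, GAZW02054249 stood at 0.0497 and 32.1 FPKM on 6 July, against 30.6 and 1.38 FPKM on 30 June, and GAZW02049419 at 0.0644 and 23.1 FPKM, against 15.9 and 0.0425 FPKM. Both were also near 0 in the unpollinated library of 10 June, at 0.117 and 0.0943 FPKM, and at 20.9 to 27.2 FPKM in both libraries of 22 June. Over all 10963 contigs that reached 10 FPKM in any of the 4 libraries, the gap between the states' changes had a median of -0.02 log2 units, and 90% of contigs lay between -1.13 and 1.11.

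**Figure D5:**
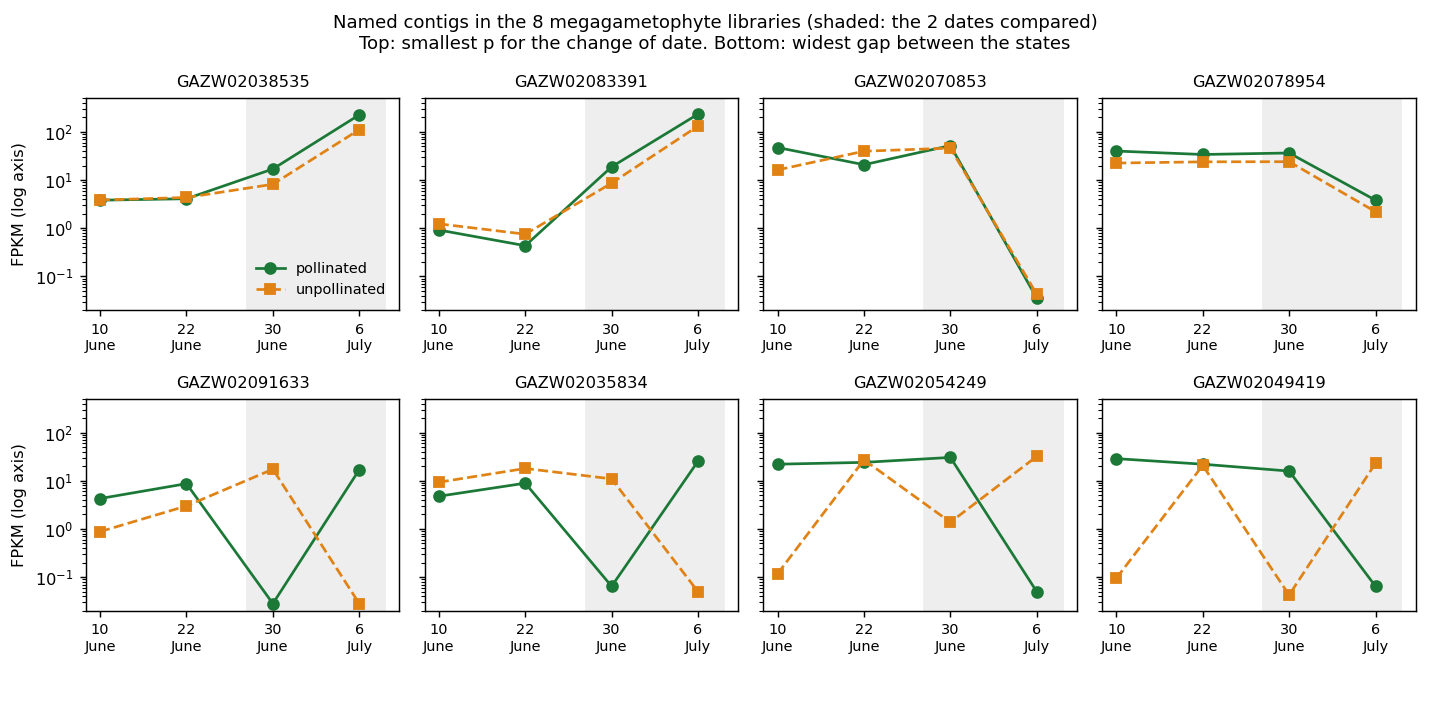
FPKM (log axis) of the 8 named contigs in pollinated (circles) and unpollinated megagametophytes (squares) on the 4 dates, with the 2 dates compared shaded. The top row holds the contigs with the smallest p for date, a choice that favours states that change alike between the 2 dates. Before these dates the states could lie apart, as for GAZW02070853 at 47.5 and 16.3 FPKM on 10 June. The bottom row holds those with the widest gap between the states, such as GAZW02091633 at 17.0 and 0.0281 FPKM on 6 July, against 0.0281 and 17.4 FPKM on 30 June.

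Contigs with consecutive numbers in the assembly were examined because related sequences can share reads. Of the 179 contigs of the higher set, 155 had a neighbour by number in the table. In 78 of these (50.3%) a neighbour was on average 2-fold or more higher as well, against 9.30% of those among the 8936 contigs that have a neighbour, and in 7 (4.52%) a neighbour was 2-fold or more lower, against 5.55%. The 179 contigs formed 157 runs of consecutive numbers, the longest of 3. In the sets that changed in 1 state alone, a neighbour moving 2-fold or more the other way in that state was found for 27.3% and 24.0% of higher and lower contigs in pollinated megagametophytes, against a background of 8.63% and 10.8%. In unpollinated megagametophytes the shares were 22.9% and 25.6%, against 8.99% and 13.1%. A neighbour moving the same way was found for 20.5% and 16.0% of higher and lower contigs in pollinated (background 10.8% and 8.63%) and for 31.4% and 25.6% in unpollinated megagametophytes (background 13.1% and 8.99%). Whether neighbours belong to 1 gene cannot be told from the table, and their part in these differences was not tested.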

How the data were processed

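The authors deposited 1 table of log-scale FPKM values for 54889 contigs and 10 libraries, with values from 0.01 to 12.28. No source used here names the base or offset of the logarithm, and log2(FPKM + 1) was assumed. Per the submitters' processing notes, RSEM 1.2.12 and Bowtie 1.0.1 were among the tools, in roles the notes do not give, and the contigs come from a transcriptome assembly, per the file headers. Whether libraries were scaled to a common distribution is not given. Reads per library are unknown.

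Contigs whose mean over the 4 libraries was at least 1 FPKM were tested with limma 3.58.1 in R 4.3.3 (lmFit, eBayes with trend). The deposited log2 values were used, and the terms were date and pollination state. The model was also run on simulated data, where it returned the size of the changes put in but called none of them after adjustment. Few of the simulated contigs were changed, so this does not give the power of the test in the measured data. Pollination state pairs the libraries of the 2 dates by their labels, and each state on each date is 1 pool. The p-values therefore weigh the change common to both states against the difference between the states' changes, moderated across contigs. They do not measure the spread between pools of the same state and date. Folds refer to FPKM + 1 and understate the change of low contigs. By rule, the contigs named for date had the smallest p, since none passed, with 10 FPKM or more on the higher date, and those named for state had the widest gap. As no contig passed, summed levels were taken over the contigs 4-fold apart in both states. These sets and comparisons were chosen with earlier results of these data known. The design's gene lists were not used, since the table gives no names. Other values used Python 3.11.15, numpy 2.4.6 and pandas 2.3.3, and plots matplotlib 3.10.9.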

Additional observations from a re-analysis of the deposited data

Results flagged for a closer look

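For the 4 contigs with the widest gap between the states, pollinated and unpollinated megagametophytes moved in opposite directions between 30 June and 6 July. This difference was not tested, since each state has 1 library on each date. The pollinated minus the unpollinated change was 8.29 log2 units for GAZW02091633, 8.15 for GAZW02035834, -8.71 for GAZW02054249 and -8.52 for GAZW02049419. Among the 8936 contigs at 10 FPKM or more in both states, 6 were 4-fold or more higher in pollinated and lower in unpollinated megagametophytes on 6 July (0.0671%), and 4 showed the reverse (0.0448%). Of these 4 contigs, 3 have a neighbour by number in the table, and none of the neighbours changed 2-fold or more against them in both states. The preceding contig of GAZW02054249 stood at 1.64 and 2.81 FPKM on 6 July, against 4.17 and 2.36 FPKM on 30 June.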

How the results depend on the processing

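The fit over all 8 megagametophyte libraries called 472 contigs (346 higher, 126 lower). The test of 4 libraries and its alternatives with all 4 called 0. With 1 residual degree of freedom per contig in the 4-library test, this is no sign of stability. Without pollination state as the pair (no replicate block), limma called 0, with 4623 contigs at an unadjusted p under 0.05. That unadjusted count was 4015 (1897 higher) at a mean of 5 FPKM or more, and leaving out each library in turn, without the pollination term, gave 2771 to 3664 (1607 to 2114 higher, 1089 to 1550 lower). The smallest limma adjusted p of the 4-library alternatives lay between 0.0583 and 0.381. The 4 contigs named for date kept their direction in all 14 alternatives. They were picked for the smallest p in the libraries that each alternative refits, so this is no check of stability. Quantile normalization kept the counts by size within 1.5 times. Median centring was chosen after the data were examined and covered the sets of both states. It left those counts at 179 and 36. The limma fit also kept its 6137 contigs at an unadjusted p under 0.05. As it changed none of these values, it is no check of stability.

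Counts by size moved with the rule. The sets higher and lower in both states held 522 and 190 contigs at 2-fold, 67 and 10 at 8-fold, 293 and 74 with a minimum of 1 FPKM, 80 and 14 with 30 FPKM, and 87 and 17 with a pseudocount of 5 FPKM, against 179 and 36. Higher contigs were 73.3% of both at 2-fold and 83.3% at 4-fold. The sets of pollinated megagametophytes alone held 180 and 144 contigs at 2-fold, 26 and 17 at 8-fold, 150 and 131 with 1 FPKM, 11 and 5 with 30 FPKM, and 22 and 10 with the pseudocount of 5 FPKM. Those of unpollinated megagametophytes alone held 252 and 277, 19 and 27, 164 and 172, 16 and 8, and 23 and 30 under the same 5 settings. With 5 FPKM as the level of presence, 65 contigs were switched on and 17 off. The contigs called over 8 libraries, in place of the 4-fold sets, held 4.28% (pollinated) and 3.40% (unpollinated) of FPKM on 6 July for the higher ones, against 1.04% and 0.897% on 30 June. The lower ones held 1.0% and 1.0% on 6 July, against 2.55% and 3.45% on 30 June. With 1 residual degree of freedom and unknown depth, absence of a call shows nothing about changes of any size, and low contigs carry the widest gaps between the states.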

Other observations

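The 346 contigs called higher over all 8 megagametophyte libraries included 116 of the 179 contigs that were 4-fold higher in both states, 64.8% of that set and 33.5% of the calls. Of the 126 called lower, 21 were in the set of 36, which is 58.3% of the set and 16.7% of the calls. On 10 June 96 of the 126 contigs called lower stood at 10 FPKM or more in both states (76.2%, against 64.9% of the 8936 contigs at that level in both states of the later dates), and 131 of the 346 called higher stood under 1 FPKM in both (37.9%, against 2.31%). The earlier dates entered that fit, so these shares are not independent of it. In scales 195 of the 346 (56.4%) and 54 of the 126 (42.9%) reached 10 FPKM, against 70.5% of the 8936. In bracts 200 (57.8%) and 46 (36.5%) did, against 66.0%. Of the 346, 24 stayed under 1 FPKM in every library outside the 2 dates compared (6.94%, against 0.403% of the 8936).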
